A study of Rattus norvegicus with 21 samples.

Results

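The maturation of the control rat liver was followed here between the ages of 23 and 63 days. The material was 6 liver RNA-seq libraries of Wistar rats labelled as controls, 3 taken at day 23 (d23) and 3 at day 63 (d63), out of 21 liver libraries in the series. They were chosen by the labels alone, and all genes were examined. The study as a whole compared control with early weaned rats, and 6 further Wistar libraries, from early weaned rats at d23 (n = 3) and d63 (n = 3), entered the same statistical fit. The remaining 9 libraries, from SD rats at d211, among them a leucine-supplemented group, were not analysed here. The labels give the strain, the tissue, the age and the weaning group. They give neither sex, diet, day of weaning nor hour of sampling, and they do not say that each library came from a separate animal. The p-values below therefore measure the spread between these libraries, which may be partly technical.

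In the weeks around and after weaning the rat liver moves from milk, which is rich in fat and protein, to solid food rich in carbohydrate. Growth hormone from the pituitary then comes to act through its hepatic receptor to raise insulin-like growth factor 1, and after puberty the sex-specific pattern of its release sets apart the male and the female liver transcriptome. Fetal genes and cell division decline over the same period, while plasma protein synthesis, drug metabolism and immune surveillance reach adult levels.

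The control libraries held 58451039 to 59666573 count units at d23 and 65994032 to 71638683 at d63, so every d63 library was deeper. They had 10641 to 10942 genes at 1 FPKM or more. FPKM stands for fragments scaled to gene length and library size, a level that can be compared between genes. About 4 count units stood for 1 sequenced fragment. Alb, the gene of the main hepatocyte protein serum albumin, was high in every control library and took 10.8% to 18.1% of all count units, at 51112 to 85367 FPKM. In a principal component analysis of the 12 Wistar libraries the first component, with 47.5% of the variance, separated the ages.

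**Figure D1:**
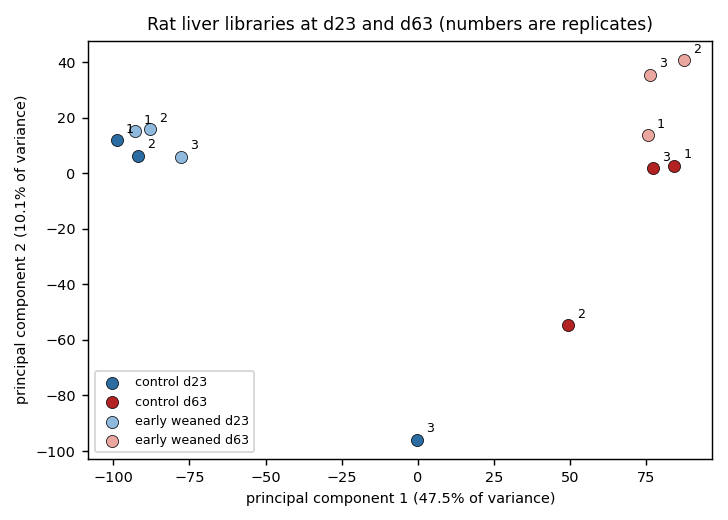
Principal component analysis of log2 expression in the 12 Wistar liver libraries. Each point is 1 library, the number beside it is the replicate, and the axes are unitless scores with the share of variance. Control d23 replicates 1 and 2 lie at -98.9 and -92.0 on component 1, control d23 replicate 3 lies at -0.33 between the ages, and the control d63 libraries lie at 84.2, 49.3 and 77.2.

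Of the 6 control libraries, 2 stood apart, and the counts of calls per gene list are given with and without them where a count moved by over 1.5 times. The library labelled control d23 replicate 3 lay between the ages. Over the 6001 genes called when it was left out, its median position was 0.783 on a scale from 0 (the other d23 controls) to 1 (the d63 controls), and 73.1% of these genes lay nearer to d63. By the same measure, 3.41% to 19.5% of genes lay nearer to the other age in the other 5 control libraries. Each was placed over the 646 to 1221 genes called without it. Control d23 replicate 3 also had the largest share of Alb counts (18.1% against 10.8% and 11.2% in its group). The library labelled control d63 replicate 2 differed in transcripts that mark sex in the rat. The Y-linked genes Eif2s3y and Kdm5d were at 9.08 to 10.2 FPKM and 2.63 to 3.36 FPKM in the other 5 control libraries, and no count of either was found in control d63 replicate 2. Cyp2c11, a steroid hydroxylase of the adult male rat liver, was at 542 and 554 FPKM in the other d63 controls and at 0.34 FPKM in this one. Cyp2c12, its counterpart in the adult female, was at 36.8 and 83.5 FPKM against 2368 FPKM. Early weaned d23 replicates 2 and 3 also lacked Y-linked transcripts, with Eif2s3y at 0 and 0.01 FPKM.

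**Figure D2:**
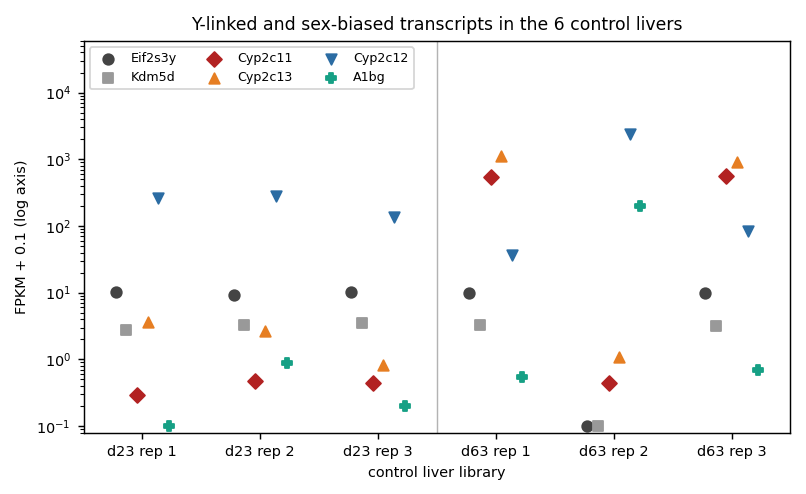
Levels of the Y-linked genes Eif2s3y and Kdm5d, the male-biased Cyp2c11 and Cyp2c13 and the female-biased Cyp2c12 and A1bg in each control library, as FPKM + 0.1 on a log axis. Control d63 replicate 2 has the Y-linked genes at 0 and Cyp2c12 at 2368 FPKM, while the other d63 controls have Cyp2c11 at 542 and 554 FPKM.

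Between d23 and d63, 2710 of 15416 genes tested changed in control livers at an adjusted p below 0.05 (edgeR quasi-likelihood test with Benjamini-Hochberg adjustment), which is 17.6% of the genes. Of these, 1229 were higher at d63 (7.97% of the genes tested) and 1481 were lower (9.61%). These 3 shares are the background for the counts of each gene group below. The change was 2-fold or more for 1683 of the called genes, and for 2375 the 3 libraries of one age did not overlap those of the other. Over all genes tested, the d63 libraries were all above the d23 libraries for 16.7% and all below for 15.7%, and the median log2 change was -0.04.

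The number of calls depended on the libraries. Without control d23 replicate 3 there were 6001 calls, which kept 97.9% of the 2710, and without control d63 replicate 2 there were 1221, which kept 41.7%. Leaving out any one of the other 4 control libraries gave 646 to 953 calls. The counts per gene list below are not given for these 4 fits, which called fewer genes than the fit without control d63 replicate 2. Fitting the 6 control libraries alone, with no spread borrowed from the early weaned libraries, gave 281 calls, and 65 of the named genes then kept their side of the threshold while 63 lost their call. Called genes named below in the comparisons kept their call in each of the 6 fits that left out 1 control library, unless the loss of the call is stated. The 3 libraries of each age did not overlap in these genes, apart from Cyp2c11, Cyp2c13, Tat, Chac1 and Jun.

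**Figure D3:**
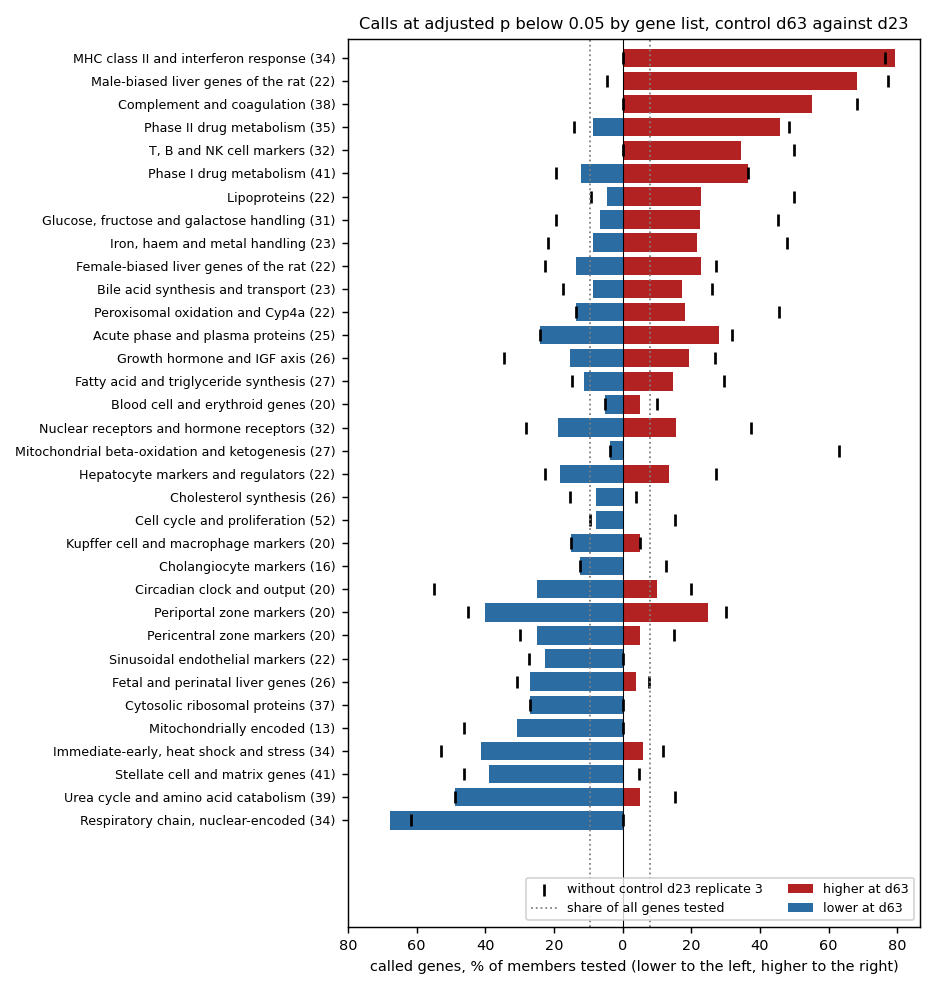
Share of the tested members of each gene list that were called higher (red, to the right) or lower (blue, to the left) at d63 than at d23 in control livers, in percent, with the number of members tested in parentheses. Dotted lines are the shares over all genes tested (7.97% and 9.61%), and black ticks are the shares without control d23 replicate 3, where mitochondrial beta-oxidation moves from 0 to 17 of 27 members called higher.

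The growth hormone and insulin-like growth factor axis changed at several of its levels. Ghr, the growth hormone receptor, had 10.5, 16.9 and 30.6 FPKM at d23 and 82.7, 129 and 90.4 FPKM at d63. The d63 values were all above the d23 values, a 5.24-fold rise (log2 change 2.39 ± 0.36 SE, adjusted p = 0.0034). Igf1, the circulating growth factor made under growth hormone control, had 29.5, 38.4 and 59.7 FPKM at d23 and 184, 119.6 and 183 FPKM at d63 and rose 3.84-fold (log2 change 1.94 ± 0.26 SE, adjusted p = 0.0023). Igfals, the acid-labile subunit that holds circulating insulin-like growth factors in a ternary complex, had 1.86, 3.54 and 12.3 FPKM at d23 and 115, 96 and 100.4 FPKM at d63 and rose 17.6-fold (log2 change 4.14 ± 0.58 SE, adjusted p = 0.0025). In all 3 genes control d23 replicate 3 was the highest of the d23 libraries, and without it the log2 changes were 2.89, 2.27 and 5.28.

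Igfbp1, which binds insulin-like growth factors and is repressed by insulin, had 7721, 5747 and 473 FPKM at d23 and 62.9, 87 and 89.7 FPKM at d63. It fell (log2 change -5.86 ± 1.01 SE, adjusted p = 0.0070), and control d23 replicate 3 lay far below the other d23 controls yet above every d63 library. Igfbp3, the main carrier in plasma, was chosen after its values were seen. It had 58.2, 61.1 and 57.6 FPKM at d23 and 25.7, 31.7 and 36.4 FPKM at d63 and fell (log2 change -0.91 ± 0.17 SE, adjusted p = 0.0090). Igf2, the fetal growth factor, stayed between 0.13 and 0.26 FPKM in all 6 libraries and did not pass the test (log2 change -0.47, adjusted p = 0.53). Of 26 genes of the axis tested, 5 rose and 4 fell, with a median log2 change of -0.54 against -0.04 over all genes. Without control d23 replicate 3 the counts were 7 and 9.

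The promoter windows of the 3 genes of this axis that rose together are shown because a receptor, its target hormone and that hormone's plasma partner moved together. Each runs from 250 bases before to 50 bases after the start of the gene, 5′ to 3′ on the gene's strand, from RefSeq on the GRCr8 build. Capitals mark matches on either strand to CCAAT (the box bound by NF-Y) or TTTGAA (the core of the cell cycle homology element), which share no letters in these windows. The TATA box TATAAA, the HNF1 core GTTAAT and TTCNNNGAA, the spacing bound by STAT5, were searched too and have no match in these 3 windows.
Ghr, chr2:54432026-54432325, minus strand: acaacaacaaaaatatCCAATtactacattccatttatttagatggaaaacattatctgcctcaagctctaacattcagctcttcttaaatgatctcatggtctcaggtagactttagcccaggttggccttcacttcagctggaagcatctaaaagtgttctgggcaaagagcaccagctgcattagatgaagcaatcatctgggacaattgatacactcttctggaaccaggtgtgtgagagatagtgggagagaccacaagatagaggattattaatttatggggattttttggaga
Igf1, chr7:24172282-24172581, plus strand: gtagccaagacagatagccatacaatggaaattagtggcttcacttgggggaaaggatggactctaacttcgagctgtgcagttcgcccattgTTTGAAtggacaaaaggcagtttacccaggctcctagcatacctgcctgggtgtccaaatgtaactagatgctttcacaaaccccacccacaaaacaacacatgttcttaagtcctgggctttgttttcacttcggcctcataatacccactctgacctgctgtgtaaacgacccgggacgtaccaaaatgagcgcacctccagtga
Igfals, chr10:14403600-14403899, plus strand: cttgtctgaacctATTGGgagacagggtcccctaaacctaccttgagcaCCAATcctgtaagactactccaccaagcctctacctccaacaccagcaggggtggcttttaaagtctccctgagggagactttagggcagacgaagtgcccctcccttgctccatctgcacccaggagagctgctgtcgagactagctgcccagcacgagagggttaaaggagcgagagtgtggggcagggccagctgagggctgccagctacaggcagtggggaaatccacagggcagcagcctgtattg
Among the 10472 tested genes with a promoter in the RefSeq table, 37.9% held CCAAT, 11.8% TTTGAA, 7.38% TATAAA, 6.82% TTCNNNGAA and 4.71% GTTAAT. Among 871 promoters of genes called higher at d63 the shares were 39.3%, 13.4%, 8.61%, 7.69% and 6.43%. Among 1098 promoters of genes called lower they were 38%, 11.4%, 6.83%, 6.83% and 3.92%. These shares are descriptions without a test.

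**Figure D4:**
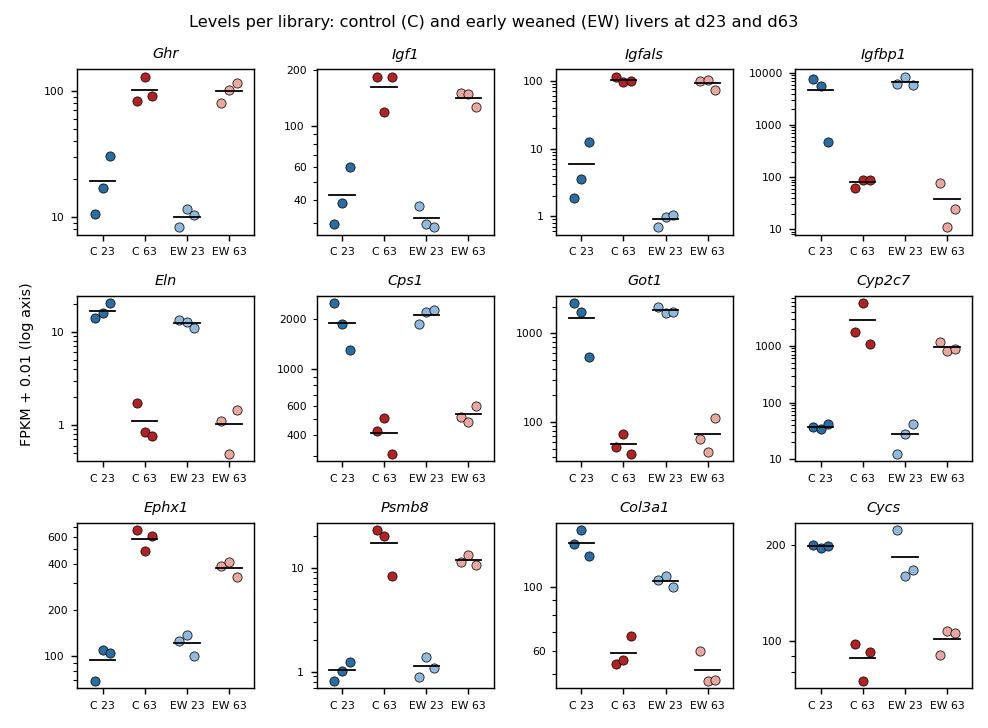
Level of 12 genes in each library, as FPKM + 0.01 on log axes, for control (C) and early weaned (EW) livers at d23 and d63. Points are libraries in replicate order and bars are group means; Igfals lies at 1.86 to 12.3 FPKM in control d23 and at 96.0 to 115 FPKM in control d63 livers, and Cps1 at 1307 to 2479.7 and 308 to 505 FPKM.

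Male-biased liver genes held many of the largest rises of the contrast. Of 22 listed and tested, 15 rose and 0 fell, with a median log2 change of 4.20. Most of the rise lay in control d63 replicates 1 and 3. Hsd3b5, a 3-ketosteroid reductase of the male rat liver, had 0.11, 0.1 and 0.24 FPKM at d23 and 216, 0.36 and 159.7 FPKM at d63 (log2 change 9.68 ± 1.77 SE, adjusted p = 0.0086). Sult1e1, the estrogen sulfotransferase, had 0.28, 0.33 and 0.3 FPKM at d23 and 1094, 0.38 and 272 FPKM at d63 (log2 change 10.53 ± 1.99 SE, adjusted p = 0.0094). The 2 entries named Mup4, a major urinary protein gene, had 0 to 0.13 FPKM at d23, 108 to 279.6 FPKM in control d63 replicates 1 and 3, and 0.15 and 0.4 FPKM in replicate 2. The related protein gene Mup5 had 0.77, 0.47 and 0 FPKM at d23 and 2552, 1.47 and 2524 FPKM at d63 (log2 change 11.96 ± 2.30 SE, adjusted p = 0.010). In each of these genes control d63 replicate 2 stayed near the d23 level while the other d63 controls were more than 100 FPKM above it.

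Cyp2c11 had 0.19, 0.38 and 0.35 FPKM at d23 and 542, 0.34 and 554 FPKM at d63 (log2 change 10.22 ± 2.12 SE, adjusted p = 0.013). Cyp2c13, another hydroxylase of the male, had 3.58, 2.56 and 0.71 FPKM at d23 and 1105, 0.98 and 923 FPKM at d63 (log2 change 8.21 ± 1.83 SE, adjusted p = 0.017). The groups of both overlapped through control d63 replicate 2. The call of Cyp2c11 was lost when control d23 replicates 1 or 2 was left out (adjusted p up to 0.063), and that of Cyp2c13 when control d23 replicates 1 or 2 was left out (adjusted p up to 0.069). Nox4, an NADPH oxidase that makes hydrogen peroxide, had no count at d23 and 8.96, 0.02 and 15.4 FPKM at d63, a group mean at least 153-fold higher. Its call (adjusted p = 0.026) was lost when control d23 replicates 1 or 2 or d63 replicates 1 or 3 was left out (adjusted p up to 0.082). Without control d63 replicate 2, 16 of the 22 male-biased genes rose and 0 fell, with a median log2 change of 4.66, and without control d23 replicate 3 the counts were 17 and 1.

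Other members of the male-biased list were high in all 3 d63 libraries. Rup2, a urinary protein gene, had 1.27, 1.71 and 0 FPKM at d23 and 6399, 2378 and 5636 FPKM at d63 (log2 change 12.23 ± 1.29 SE, adjusted p = 0.00072). Asgr1, a subunit of the receptor that clears desialylated glycoproteins, had 177, 189.8 and 222 FPKM at d23 and 364, 387 and 424 FPKM at d63 (log2 change 1.00 ± 0.13 SE, adjusted p = 0.0019). The levels of Asgr1 were alike in the 3 d63 libraries, while those of Rup2 were lowest in replicate 2. Hsd17b2, which inactivates estradiol and testosterone, had 9.31, 20.9 and 19 FPKM at d23 and 289, 119 and 498 FPKM at d63 (log2 change 4.21 ± 0.56 SE, adjusted p = 0.0020). Slco1a1, an organic anion uptake transporter, had 19.1, 20.7 and 22.9 FPKM at d23 and 64.7, 57.7 and 56.9 FPKM at d63 (log2 change 1.52 ± 0.22 SE, adjusted p = 0.0031). The Mup, Rup and Cyp2c families hold near-identical copies, and how their shared reads were counted is not stated, so the split between copies is uncertain.

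Among 22 female-biased genes tested, 5 rose and 3 fell, and the median was 0.65. Without control d63 replicate 2 it was -0.62, with 3 rising and 4 falling, and without control d23 replicate 3 the counts were 6 and 5. Cyp2c7, a retinoic acid and steroid hydroxylase, had 36.7, 33.7 and 41.5 FPKM at d23 and 1768, 5560.2 and 1089 FPKM at d63 and rose 75.6-fold (log2 change 6.24 ± 0.68 SE, adjusted p = 0.00077). It was high in every d63 library, and highest in replicate 2. Fst, which encodes the activin antagonist follistatin, had 334, 159 and 3.47 FPKM at d23 and 0.18, 0.21 and 0.33 FPKM at d63 and fell (log2 change -9.38 ± 1.68 SE, adjusted p = 0.0082), with control d23 replicate 3 again between the groups. Cyp2c12 did not pass the test (log2 change 1.87, adjusted p = 0.32; -1.92 and 0.16 without control d63 replicate 2), and its d23 values of 135 to 282 FPKM lay between those of the d63 libraries.

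Enzymes of amino acid breakdown and the urea cycle were lower at d63. Of 39 tested, 19 fell and 2 rose (one of them Asgr1, a glycoprotein receptor that the list also holds), with a median log2 change of -0.79. Cps1, the entry enzyme of the urea cycle, had 2479.7, 1862 and 1307 FPKM at d23 and 422, 505 and 308 FPKM at d63 and was 4.56-fold lower (log2 change -2.19 ± 0.26 SE, adjusted p = 0.0013). Ass1, which joins citrulline and aspartate, had 5116, 3471 and 2697 FPKM at d23 and 703, 945 and 588 FPKM at d63 (log2 change -2.33 ± 0.30 SE, adjusted p = 0.0017). In both genes control d23 replicate 3 was the lowest of its group. Got1, the cytosolic aspartate aminotransferase, had 2171, 1738 and 538 FPKM at d23 and 52.6, 74 and 43.8 FPKM at d63 and was 26-fold lower (log2 change -4.70 ± 0.53 SE, adjusted p = 0.00092). Sds, serine dehydratase, had 2573, 2281 and 305 FPKM at d23 and 42.6, 80.1 and 49.2 FPKM at d63 and was 29.9-fold lower (log2 change -4.90 ± 0.67 SE, adjusted p = 0.0023). The groups did not overlap in any of these 4 genes.

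Arg1, arginase, was named after its values were seen and had 2654, 2191 and 1214 FPKM at d23 and 833, 769 and 549 FPKM at d63 (log2 change -1.49 ± 0.27 SE, adjusted p = 0.0085). Tat, tyrosine aminotransferase, which glucocorticoids and glucagon induce, had 5008, 3641 and 561 FPKM at d23 and 822, 524 and 341 FPKM at d63. Its groups overlapped and its call (log2 change -2.44 ± 0.69 SE, adjusted p = 0.035) was lost in 5 of the 6 fits, when control d23 replicates 1 or 2 or d63 replicates 1, 2 or 3 was left out (adjusted p up to 0.13). Control d23 replicate 3 lay nearer to the d63 mean than to the other d23 controls in 9 of the 21 called genes of the list. The genes were called with this library as d23, which favours genes where it lay near that age. For this measure, here and below, the share over all called genes is not given. Without control d23 replicate 3, 19 fell and 6 rose, and without control d63 replicate 2, 16 fell and 1 rose.

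Genes of sugar handling changed in both directions. G6pc, glucose-6-phosphatase, which frees glucose for export, had 2180.2, 1364 and 626 FPKM at d23 and 142, 150.0 and 389 FPKM at d63 and was 6.16-fold lower at d63 (log2 change -2.62 ± 0.49 SE, adjusted p = 0.0093). Galm, the galactose mutarotase, had 6.28, 9.19 and 22.6 FPKM at d23 and 38.4, 43 and 44.6 FPKM at d63 (log2 change 1.73 ± 0.42 SE, adjusted p = 0.021). Khk, ketohexokinase, which starts fructose use, had 44.9, 82.6 and 128 FPKM at d23 and 179, 175 and 174 FPKM at d63 (log2 change 1.06 ± 0.33 SE, adjusted p = 0.0499). Both calls were lost in 5 of the 6 fits and held only without control d23 replicate 3, with adjusted p up to 0.084 for Galm and 0.14 for Khk. Pklr, the liver pyruvate kinase, had 1.56, 3.36 and 12.6 FPKM at d23 and 14.8, 22.8 and 15.9 FPKM at d63 and did not pass the test (log2 change 1.62, adjusted p = 0.10). It passed without control d23 replicate 3, with 2.88 and 0.0016. Of 31 genes tested, 7 rose and 2 fell, and without control d23 replicate 3 these counts were 14 and 6, and without control d63 replicate 2 they were 2 and 1.

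Lipid genes gave mixed counts. In fatty acid and triglyceride synthesis 4 of 27 rose and 3 fell (8 and 4 without control d23 replicate 3). Acacb, the acetyl-CoA carboxylase whose product inhibits mitochondrial fatty acid uptake, had 0.54, 0.32 and 1.29 FPKM at d23 and 3.12, 6.12 and 3.18 FPKM at d63 and rose (log2 change 2.52 ± 0.47 SE, adjusted p = 0.0092). Dgat1, which completes triglyceride synthesis, had 33.3, 30.9 and 30.2 FPKM at d23 and 15.6, 18.8 and 16.2 FPKM at d63 and fell (log2 change -0.90 ± 0.14 SE, adjusted p = 0.0046), as did the fatty acid carrier Fabp5 with 44.9, 77.8 and 36.1 FPKM at d23 and 10.6, 14.9 and 13.7 FPKM at d63 (log2 change -2.01 ± 0.33 SE, adjusted p = 0.0054). Fasn, fatty acid synthase, and Scd, stearoyl-CoA desaturase, did not pass, with log2 changes of 1.07 and -2.13 and adjusted p of 0.19 and 0.28. For Scd control d23 replicate 3 was the highest library, and without it the log2 change was 0.33 (adjusted p = 0.85).

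Of 27 genes of mitochondrial beta-oxidation and ketogenesis, 0 rose and 1 fell. Without control d23 replicate 3 the counts were 17 and 1 and the median log2 change moved from 0.24 to 0.68. Cpt1a, which admits long-chain fatty acids to mitochondria, had 239, 192 and 169 FPKM at d23 and 94.8, 127 and 205 FPKM at d63 and did not pass (log2 change -0.49, adjusted p = 0.20). Among 22 genes of peroxisomal oxidation and the Cyp4a family 4 rose and 3 fell (10 and 3 without control d23 replicate 3, 4 and 1 without control d63 replicate 2). Abcd2, a peroxisomal fatty acid transporter, had 2.63, 2.27 and 8.51 FPKM at d23 and 0.22, 0.78 and 0.16 FPKM at d63 (log2 change -3.52 ± 0.77 SE, adjusted p = 0.016), a call lost when control d63 replicates 1 or 3 was left out (adjusted p up to 0.064).

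Lipoprotein genes rose more often than they fell, 5 against 1 of 22, and without control d23 replicate 3 the counts were 11 and 2 (3 and 1 without control d63 replicate 2). Apoa2, an apolipoprotein of high density lipoprotein, had 138, 313 and 414 FPKM at d23 and 1075, 2391 and 1277 FPKM at d63 (log2 change 2.47 ± 0.40 SE, adjusted p = 0.0053). Apoa4, another apolipoprotein, had 280.5, 346 and 386 FPKM at d23 and 1028, 596 and 1059 FPKM at d63 (log2 change 1.41 ± 0.27 SE, adjusted p = 0.010). Lpl, lipoprotein lipase, which is expressed in the neonatal and far less in the adult liver, had 8.62, 8.29 and 9.29 FPKM at d23 and 2.47, 2.61 and 2.26 FPKM at d63 and fell (log2 change -1.83 ± 0.34 SE, adjusted p = 0.0091). Of 23 bile acid genes 4 rose and 2 fell (6 and 4 without control d23 replicate 3, 4 and 1 without control d63 replicate 2). Slco1b2, a bile acid uptake transporter, had 56, 54 and 83.8 FPKM at d23 and 174, 268 and 177 FPKM at d63 (log2 change 1.68 ± 0.32 SE, adjusted p = 0.0098). Abcc3, an export pump of the basolateral membrane, had 22.2, 16.3 and 5.34 FPKM at d23 and 0.71, 2.47 and 0.59 FPKM at d63 (log2 change -3.54 ± 0.63 SE, adjusted p = 0.0081). Cyp7a1, which catalyses the first step from cholesterol to bile acids, had 276, 222 and 30.1 FPKM at d23 and 57.3, 7.73 and 12.7 FPKM at d63 and did not pass (log2 change -2.75, adjusted p = 0.061). It passed without control d23 replicate 3 (log2 change -3.25, adjusted p = 0.011) and without control d63 replicate 1 (-4.12, adjusted p = 0.042). Of 26 cholesterol synthesis genes 0 rose and 2 fell (1 and 4 without control d23 replicate 3), against 7.97% and 9.61% of all genes.

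Drug metabolism changed in both phases, with more genes higher than lower. In phase I, which holds oxidising enzymes and also the hydrolase Ephx1, 15 of 41 rose and 5 fell. Ephx1, microsomal epoxide hydrolase, had 69.2, 110.0 and 104 FPKM at d23 and 669, 485 and 609 FPKM at d63 and rose 6.27-fold (log2 change 2.65 ± 0.22 SE, adjusted p = 0.00028). Cyp2b3 had 95.5, 122 and 108 FPKM at d23 and 372, 355 and 303 FPKM at d63 and rose 3.19-fold (log2 change 1.67 ± 0.15 SE, adjusted p = 0.00032). The groups were far apart for both genes, and leaving out control d23 replicate 3 gave log2 changes of 2.73 and 1.67. Cyp1a1, induced through the aryl hydrocarbon receptor and named after its values were seen, had 16.4, 8.53 and 11.7 FPKM at d23 and 0.57, 0.11 and 0.34 FPKM at d63 and fell (log2 change -5.16 ± 0.64 SE, adjusted p = 0.0014). Cyp1a2 and Cyp2e1 did not pass, with log2 changes of 0.13 and -0.25 and adjusted p of 0.81 and 0.55. Without control d23 replicate 1 Cyp1a2 was at -0.05.

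In phase II, which holds the conjugating enzymes, 16 of 35 rose and 3 fell. Ugt2b15, a glucuronosyltransferase for steroids, had 94.1, 103 and 91 FPKM at d23 and 353, 249 and 444 FPKM at d63 (log2 change 1.87 ± 0.26 SE, adjusted p = 0.0025). Sult1b1, a sulfotransferase for thyroid hormone and phenols, had 63.4, 36.6 and 66.1 FPKM at d23 and 323, 195 and 196 FPKM at d63 (log2 change 2.11 ± 0.33 SE, adjusted p = 0.0047). Sult1c3 had 1.57, 3.41 and 3.6 FPKM at d23 and 180.4, 11.4 and 214 FPKM at d63 (log2 change 5.57 ± 0.88 SE, adjusted p = 0.0048), and its lowest d63 value was that of control d63 replicate 2. Without control d63 replicate 2 the counts were 13 and 3 in phase I and 11 and 4 in phase II, and without control d23 replicate 3 they were 15 and 8, and 17 and 5. Of the phase I genes that rose, Cyp2c7, Cyp2c11 and Cyp2c13 are also in the sex-biased lists. Sult1b1, of phase II, is in the female-biased list too, and any further overlap of phase II with these lists is not given here.

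Genes of complement and coagulation rose together. Of 38 tested, 21 rose and 0 fell, and in 26 the d63 libraries were all above the d23 libraries. C1r, a protease of the first complement component, had 76.8, 89.8 and 80.5 FPKM at d23 and 326, 246 and 348 FPKM at d63 (log2 change 1.91 ± 0.24 SE, adjusted p = 0.0014). C1s, the protease that it activates, had 33.3, 40.1 and 33.6 FPKM at d23 and 169, 139 and 166 FPKM at d63 (log2 change 2.16 ± 0.33 SE, adjusted p = 0.0038). C9, the pore-forming component, had 139, 177 and 158 FPKM at d23 and 399, 374 and 449 FPKM at d63 and rose 2.59-fold (log2 change 1.37 ± 0.19 SE, adjusted p = 0.0024). The rises were small beside those of the immune genes below, with a median log2 change of 0.63. Without control d63 replicate 2, 9 of the 38 were called, and without control d23 replicate 3, 26.

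The acute phase and plasma protein list was split, with 7 of 25 higher and 6 lower (5 and 2 without control d63 replicate 2). Hpx, haemopexin, which binds free haem, had 1514, 1932 and 1844 FPKM at d23 and 3518, 3971 and 3824 FPKM at d63 and rose (log2 change 1.11 ± 0.15 SE, adjusted p = 0.0024). Cp, the copper-binding ferroxidase ceruloplasmin, had 219.9, 241 and 188 FPKM at d23 and 370.2, 436 and 347 FPKM at d63 (log2 change 0.84 ± 0.16 SE, adjusted p = 0.0091). Tfrc, the transferrin receptor, had 32.7, 40.8 and 20.8 FPKM at d23 and 10.3, 7.31 and 7.36 FPKM at d63 and fell (log2 change -1.90 ± 0.29 SE, adjusted p = 0.0040). Alb and Hamp, the iron hormone hepcidin, did not pass (log2 changes -0.15 and -0.79, adjusted p 0.64 and 0.41). Without control d23 replicate 3 Alb was at 0.13 and Hamp passed with a fall (-1.29, adjusted p = 0.039), while without control d23 replicate 2 Hamp was at 0.24. Of 23 genes of iron, haem and metal handling, among them Tfrc, Hpx and Cp, 5 rose and 2 fell, and without control d23 replicate 3 the counts were 11 and 5, and without control d63 replicate 2 they were 2 and 2.

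The largest share of rising genes in any list was that of antigen presentation and interferon response, where 27 of 34 rose and 0 fell, with a median log2 change of 2.51. B2m, the light chain of class I histocompatibility molecules, had 154, 199 and 268 FPKM at d23 and 1072, 814 and 776 FPKM at d63 and rose 4.33-fold (log2 change 2.11 ± 0.22 SE, adjusted p = 0.00072). Tap1, a subunit of the peptide transporter, had 0.51, 0.75 and 1.31 FPKM at d23 and 8.93, 6.74 and 4.73 FPKM at d63 (log2 change 2.98 ± 0.35 SE, adjusted p = 0.0011). Psmb8, a subunit of the immunoproteasome, had 0.81, 1.01 and 1.23 FPKM at d23 and 23, 20.1 and 8.39 FPKM at d63 and rose 16.9-fold (log2 change 4.08 ± 0.38 SE, adjusted p = 0.00034). In each of them all d63 libraries exceeded all d23 libraries. Cd74, the invariant chain of class II molecules, named after its values were seen, had 24.1, 20.6 and 32.3 FPKM at d23 and 434, 127 and 91.7 FPKM at d63 (log2 change 3.10 ± 0.53 SE, adjusted p = 0.0070), and control d63 replicate 1 was the highest. Cd274, the checkpoint ligand PD-L1, which interferon gamma induces, had no count in the 3 d23 libraries and 1.37, 1.75 and 1.31 FPKM at d63. The rise was at least 14.6-fold over the level of 3 fragments per library (adjusted p = 0.00015). Genes of the RT1 complex have close copies, and reads shared between them may be split unevenly.

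Lymphocyte markers rose beside these genes. Of 32 T, B and NK cell markers tested, 11 rose and 0 fell (6 and 0 without control d63 replicate 2), and in 22 all d63 libraries were above all d23 libraries, against 16.7% of all genes. Of the 11, only Cd8a kept its call when control d23 replicate 1 was left out. The summed level of the list was 22.3 to 28.9 FPKM at d23 and 50.9 to 95.2 FPKM at d63. Cd8a, of cytotoxic T cells, had 0.15, 0.24 and 0.07 FPKM at d23 and 1.79, 0.76 and 1.13 FPKM at d63 (adjusted p = 0.011). Gzma, the protease granzyme A of killer cells, had 0.48, 0.79 and 0.96 FPKM at d23 and 4.81, 2.85 and 1.94 FPKM at d63 (log2 change 2.11 ± 0.43 SE, adjusted p = 0.013), a call lost when control d23 replicate 1 or d63 replicate 1 was left out (adjusted p up to 0.057). Ighm, the immunoglobulin mu chain, had 0.57, 0.54 and 1.33 FPKM at d23 and 5.97, 6.22 and 3.82 FPKM at d63 (log2 change 2.72 ± 0.54 SE, adjusted p = 0.011), a call lost when control d23 replicates 1 or 2 was left out (adjusted p up to 0.0539). In bulk tissue more cells of a type and more RNA per cell cannot be told apart, here and for every cell type below. The part of lymphocytes in the interferon and antigen presentation genes was not tested.

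Of 20 Kupffer cell and macrophage markers tested, 1 rose and 3 fell, with a summed level of 602 to 862 FPKM at d23 and 539.9 to 1011 FPKM at d63. The list as a whole was even, with 10 log2 changes above 0, 10 below and a median of -0.07. Cd163, the haemoglobin scavenger receptor of resident macrophages, had 18.2, 14.9 and 13.1 FPKM at d23 and 9.83, 8.32 and 8.38 FPKM at d63 and fell (log2 change -0.80 ± 0.16 SE, adjusted p = 0.011). Hmox1, haem oxygenase, had 70.4, 51.4 and 34.1 FPKM at d23 and 26.3, 21.2 and 19.5 FPKM at d63 and fell (log2 change -1.21 ± 0.26 SE, adjusted p = 0.015), a call lost when control d23 replicate 1 or d63 replicate 3 was left out (adjusted p up to 0.060). Among 22 sinusoidal endothelial markers 0 rose and 5 fell (0 and 2 without control d63 replicate 2). All 5 lost their call when control d23 replicate 1 was left out. Lyve1, a hyaluronan receptor of these cells, had 40.3, 43.2 and 33.7 FPKM at d23 and 23.6, 16.3 and 23.2 FPKM at d63 and fell (log2 change -0.89 ± 0.19 SE, adjusted p = 0.014), a call lost when control d23 replicates 1 or 2 was left out (adjusted p up to 0.0542).

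Extracellular matrix genes fell. Of 41 stellate cell and matrix genes, 16 fell and 0 rose, and 23 had all d63 libraries below all d23 libraries. Leaving out control d23 replicate 3 gave 19 falls and 2 rises. Eln, elastin, had 13.9, 15.9 and 20.1 FPKM at d23 and 1.7, 0.84 and 0.76 FPKM at d63 and was 14.9-fold lower (log2 change -3.90 ± 0.43 SE, adjusted p = 0.00077). Col3a1, a fibrillar collagen, had 141, 157 and 128 FPKM at d23 and 54.4, 56 and 67.9 FPKM at d63 and was 2.38-fold lower (log2 change -1.25 ± 0.15 SE, adjusted p = 0.0013). Col4a1, of basement membranes, had 19.3, 19 and 20.4 FPKM at d23 and 7.86, 7.59 and 9.66 FPKM at d63 and was 2.33-fold lower (log2 change -1.22 ± 0.14 SE, adjusted p = 0.00091). For none of the 16 called genes did control d23 replicate 3 lie nearer to d63, though calling with this library as d23 favours such genes. Of 16 cholangiocyte markers 2 fell and 0 rose (2 and 2 without control d23 replicate 3). Ggt1, a fetal and bile duct enzyme, had 1.99, 2.52 and 1.3 FPKM at d23 and 0.37, 0.11 and 0.29 FPKM at d63 (log2 change -2.89 ± 0.55 SE, adjusted p = 0.0098).

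Hepatocyte regulators and zonal markers were split between rises and falls. Hnf4a, a master transcription factor of hepatocytes, had 65.9, 69.3 and 98.8 FPKM at d23 and 133, 144 and 158 FPKM at d63 and rose 1.87-fold (log2 change 0.90 ± 0.17 SE, adjusted p = 0.0098). Of 22 hepatocyte genes 3 rose and 4 fell (6 and 5 without control d23 replicate 3, 3 and 1 without control d63 replicate 2). Their median log2 change was -0.14, with 8 above 0 and 14 below. Of 20 periportal markers 5 rose and 8 fell, and of 20 pericentral markers 1 rose and 5 fell. Without control d63 replicate 2 these counts were 3 and 7, and 1 and 3, and without control d23 replicate 3 the pericentral counts were 3 and 6. The periportal falls included Cps1, Ass1, Sds and Arg1, described above, and the periportal rises included Igf1. Rhbg, an ammonium transporter of pericentral hepatocytes, had 16.4, 6.81 and 10.1 FPKM at d23 and 3.02, 1.39 and 2.82 FPKM at d63 and fell (log2 change -2.20 ± 0.43 SE, adjusted p = 0.010).

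Fetal and perinatal genes fell more often than they rose. Of 26 tested, 7 fell and 1 rose (8 and 2 without control d23 replicate 3), with a median log2 change of -0.82. Igf2bp2, a fetal RNA-binding protein gene, had 1.4, 2.1 and 1.02 FPKM at d23 and 0.17, 0.05 and 0.03 FPKM at d63 (log2 change -4.14 ± 0.75 SE, adjusted p = 0.0085). Aldoa, the muscle aldolase, had 143, 201 and 83.8 FPKM at d23 and 45.4, 48.8 and 38.3 FPKM at d63 (log2 change -1.68 ± 0.26 SE, adjusted p = 0.0039). Aldoc, the brain aldolase, had 1.98, 1.89 and 1.06 FPKM at d23 and 0.11, 0.03 and 0.06 FPKM at d63 (adjusted p = 0.0067). Afp, the fetal serum protein alpha-fetoprotein, had 9.49, 4.12 and 70.5 FPKM at d23 and 5.15, 3.93 and 4.93 FPKM at d63 and did not pass the test (log2 change -2.58, adjusted p = 0.10). Control d23 replicate 3 alone was far above the other libraries for Afp.

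The miRNA gene Mir675, which lies within the imprinted fetal transcript H19, was among the 12 largest falls without overlap between the ages. Its entry of 84 bases had 92.3, 488 and 1301 FPKM at d23 and 3.75, 1.11 and 2.02 FPKM at d63 (adjusted p = 0.017), a call lost when control d63 replicates 1, 2 or 3 was left out (adjusted p up to 0.063). The libraries were made from messenger RNA, so the value is of transcripts across the hairpin and not of mature miRNA. Both mature products are shown, with the seed (bases 2 to 8) in capitals, since this was the one named miRNA, and the seeds of the 2 arms differ. The sequences are those of RefSeq on GRCr8, written 5′ to 3′ from the minus strand.
rno-miR-675-5p, chr1:207161800-207161821: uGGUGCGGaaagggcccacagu
rno-miR-675-3p, chr1:207161766-207161786: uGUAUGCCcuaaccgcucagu

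Markers of dividing cells were highest in control d23 replicate 3. Of 52 tested, 4 fell and 0 rose, and the median log2 change was -1.76. Mki67, the marker of dividing cells, had 0.06, 0.07 and 3.96 FPKM at d23 and 0.34, 0.24 and 0.17 FPKM at d63 (log2 change -2.42, adjusted p = 0.20). Top2a, the topoisomerase of chromosome segregation, had 0.03, 0 and 2.46 FPKM at d23 and 0.33, 0.1 and 0.09 FPKM at d63 (log2 change -2.24, adjusted p = 0.36; 3.38 and 0.13 without control d23 replicate 3). Without control d23 replicate 3 the median of the list was 1.26, 8 genes rose and 5 fell, and Mki67 was 2.03 on the log2 scale with an adjusted p of 0.020. Leaving out control d63 replicate 2 gave 0 rises and 2 falls, with a median of -1.75. The direction of the list between the ages was therefore set by 1 library. Ccne1, cyclin E1, which starts DNA replication, had 2.09, 3.01 and 0.97 FPKM at d23 and 0.41, 0.17 and 0.27 FPKM at d63 (log2 change -2.80 ± 0.51 SE, adjusted p = 0.0085). Kif11, a spindle motor, had 0.72, 0.45 and 1.32 FPKM at d23 and 0.17, 0.08 and 0.16 FPKM at d63 (log2 change -2.56 ± 0.48 SE, adjusted p = 0.0095). Both fell with and without control d23 replicate 3. Diaph3, a formin of the cytokinetic ring that was not in the list, had 2.09, 1.38 and 0.9 FPKM at d23 and no count at d63, at least 27.9-fold lower (adjusted p = 0.00072).

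The promoter of Kif11 is shown as that of a called cell cycle gene with a CCAAT box, marked in capitals on the opposite strand. It comes from the same RefSeq table and covers the same distances.
Kif11, chr1:244536617-244536916, plus strand: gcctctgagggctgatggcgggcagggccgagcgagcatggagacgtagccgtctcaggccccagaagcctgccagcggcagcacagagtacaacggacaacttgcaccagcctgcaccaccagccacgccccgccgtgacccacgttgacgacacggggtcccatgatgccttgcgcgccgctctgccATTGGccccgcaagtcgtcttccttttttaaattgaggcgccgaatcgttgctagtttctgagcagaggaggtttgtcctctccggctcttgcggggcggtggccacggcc
Of the 43 cell cycle genes with a promoter in the table, 74.4% held CCAAT and 46.5% held TTTGAA, against 37.9% and 11.8% over all genes tested. TATAAA was in 2.33% of them, against 7.38%. This describes the list, which was chosen by function and not by its change with age.

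Genes of oxidative phosphorylation fell by small amounts. Of 34 entries for nuclear-encoded subunits of the respiratory chain, 23 fell and 0 rose (15 and 0 without control d63 replicate 2), the highest share of falling genes in any of the lists, and in 27 all d63 libraries were below all d23 libraries. Most of the 23, unlike Cyc1, Cycs and Ndufv1, lost their call when control d63 replicate 3 was left out. Cyc1, cytochrome c1 of complex III, had 188, 163 and 204 FPKM at d23 and 82, 93.2 and 80.8 FPKM at d63 and was 2.16-fold lower (log2 change -1.11 ± 0.14 SE, adjusted p = 0.0016). Cycs, cytochrome c itself, had 199.9, 195 and 198 FPKM at d23 and 98, 75.4 and 92.7 FPKM at d63 and was 2.22-fold lower (log2 change -1.15 ± 0.17 SE, adjusted p = 0.0031). Ndufv1, of complex I, had 109, 101 and 113 FPKM at d23 and 60.9, 63.5 and 64.1 FPKM at d63 (log2 change -0.77 ± 0.13 SE, adjusted p = 0.0066). For none of the 23 called genes did control d23 replicate 3 lie nearer to d63, though calling with this library as d23 favours such genes. Of 13 mitochondrially encoded genes 4 fell and 0 rose (2 and 0 without control d63 replicate 2), with a median log2 change of -0.36, and mitochondrial transcripts took 10.4% to 11.5% of count units at d23 and 8.50% to 9.06% at d63. These 4 lost their call when control d23 replicates 1 or 2 or d63 replicates 1 or 3 was left out.

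Ppargc1a, the coactivator PGC-1alpha, had 54.5, 15.3 and 2.35 FPKM at d23 and 0.98, 1.47 and 0.73 FPKM at d63 (log2 change -4.51 ± 0.91 SE, adjusted p = 0.012), a call lost when control d63 replicates 1 or 3 was left out (adjusted p up to 0.0512). Esrra, the receptor ERRalpha that it activates, had 36.9, 40 and 17.8 FPKM at d23 and 9.79, 12 and 10.1 FPKM at d63 and was 2.96-fold lower (log2 change -1.56 ± 0.27 SE, adjusted p = 0.0074). Of 37 cytosolic ribosomal protein genes 10 fell and 0 rose, with a median of -0.39. All 10 lost their call when control d23 replicate 1 or d63 replicates 1 or 3 was left out. Rpl3 had 117, 111 and 106 FPKM at d23 and 55.4, 72.5 and 56.9 FPKM at d63 (log2 change -0.85 ± 0.17 SE, adjusted p = 0.012), a call lost when control d23 replicate 1 or d63 replicates 1 or 3 was left out (adjusted p up to 0.0539). When the mitochondrially encoded and the 20 most counted genes were left out of the scaling, the median over all genes moved from -0.04 to -0.02.

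Of 34 stress and immediate-early genes tested, 14 fell and 2 rose. Gadd45b, a stress sensor of the growth arrest family, had 332, 398 and 12.8 FPKM at d23 and 5.45, 4.94 and 6.4 FPKM at d63 (log2 change -5.46 ± 0.98 SE, adjusted p = 0.0084). Myc, the growth-promoting transcription factor, had 114, 96 and 5.3 FPKM at d23 and 2.22, 2.96 and 2 FPKM at d63 (log2 change -4.90 ± 0.91 SE, adjusted p = 0.0088). In 13 of the 16 called genes control d23 replicate 3 lay nearer to the d63 mean than to the other d23 controls. The mitochondrial chaperone Hspd1 was not of this kind, with 220.2, 195 and 193 FPKM at d23 and 90.2, 119 and 112 FPKM at d63 (log2 change -0.91 ± 0.14 SE, adjusted p = 0.0038). Without control d63 replicate 2, 4 of the list fell and 1 rose, and without control d23 replicate 3, 18 fell and 4 rose.

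Of 20 clock genes tested, 5 fell and 2 rose, and without control d23 replicate 3 the counts were 11 and 4 (3 and 2 without control d63 replicate 2). The labels do not give the hour of sampling. Cry1, a repressor of the clock, had 3.78, 5.62 and 4.36 FPKM at d23 and 0.69, 1.09 and 0.5 FPKM at d63 (log2 change -2.58 ± 0.36 SE, adjusted p = 0.0025). Dbp, a clock output factor whose level swings over the day, had 11.4, 12.3 and 7.85 FPKM at d23 and 29.6, 30.3 and 60.6 FPKM at d63 (log2 change 1.93 ± 0.35 SE, adjusted p = 0.0086). Rora, an activator of the clock, had 9.16, 4.54 and 1.37 FPKM at d23 and 0.71, 0.92 and 0.81 FPKM at d63 (log2 change -2.62 ± 0.59 SE, adjusted p = 0.018), a call lost when control d23 replicate 1 or d63 replicates 1 or 3 was left out (adjusted p up to 0.071). Of 32 nuclear and hormone receptor genes 5 rose and 6 fell (12 and 9 without control d23 replicate 3). Ppard, a fatty acid receptor, had 3.91, 3.45 and 2.27 FPKM at d23 and 1.25, 1.7 and 1.24 FPKM at d63 and fell (log2 change -1.20 ± 0.22 SE, adjusted p = 0.0085).

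Further genes among the 12 largest rises and the 12 largest falls, taken from called genes without overlap between the ages and with a mean of at least 1 FPKM in the higher group, belonged to none of the lists. Lhx8, a homeobox gene, had no count at d23 and 1.36, 1.39 and 0.96 FPKM at d63, at least 11-fold higher (adjusted p = 0.00077). Plppr1 had no count at d23 and 1.35, 1.78 and 0.42 FPKM at d63, at least 10.4-fold higher (adjusted p = 0.0076). Stac3 and Gimd1 had no count at d23, and at d63 they had 12.3, 0.22 and 13.2 and 1.14, 0.06 and 3.41 FPKM, low in control d63 replicate 2. The call of Stac3 was lost when control d23 replicate 1 was left out (adjusted p up to 0.0511), and that of Gimd1 was lost when control d23 replicates 1 or 2 or d63 replicates 1 or 3 was left out (adjusted p up to 0.099).

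Among the falls, Gucy2c, the receptor of guanylin, had 1.16, 1.87 and 0.61 FPKM at d23 and no count at d63, at least 26.4-fold lower (adjusted p = 0.0023). Prkar1b, a regulatory subunit of protein kinase A, had 1.79, 1.19 and 1.19 FPKM at d23 and no count at d63, at least 8.74-fold lower (adjusted p = 0.0086). Ppp1r3g, a glycogen-targeting subunit of protein phosphatase 1, had 221, 154 and 1.11 FPKM at d23 and 0.26, 0.21 and 0.92 FPKM at d63 (log2 change -8.06 ± 1.58 SE, adjusted p = 0.011). Here too control d23 replicate 3 was near the d63 libraries. Gpx2, a glutathione peroxidase, had 0.65, 0.12 and 2.74 FPKM at d23 and no count at d63, at least 6.95-fold lower (adjusted p = 0.0085). S100g, Doc2a, Unc93a and Foxq1 completed the list of falls, with 0.54 to 19.8 FPKM at d23 (apart from 0.17 FPKM of Doc2a in control d23 replicate 3) and 0.15 FPKM or less at d63. The call of S100g was lost when control d23 replicates 1 or 2 or d63 replicates 1, 2 or 3 was left out (adjusted p up to 0.087), that of Doc2a when control d23 replicates 1 or 2 or d63 replicates 1, 2 or 3 was left out (adjusted p up to 0.10) and that of Foxq1 when control d23 replicate 1 or d63 replicate 3 was left out (adjusted p up to 0.058).

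The same ages were compared in early weaned livers, which share no library with the control comparison, although both use the common estimate of spread. Early weaned d23 replicates 2 and 3 lacked Y-linked transcripts, while every early weaned d63 library held them (Eif2s3y at 9.33 to 11.4 FPKM). Age and this difference are therefore partly mixed in the early weaned comparison. There 4161 of 15416 genes changed, 27% of those tested, with 2085 higher and 2076 lower at d63 (13.5% each). Of the control calls, 2028 were called in the same direction in early weaned livers, which is 74.8% of the control calls and 48.7% of the early weaned calls, and 3 were called in the opposite direction. The sign was the same for 98.6% of the control calls, and the same share over all genes tested was not computed. Genes higher at d63 in control livers had a median log2 change of 1.20 there and 1.16 in early weaned livers, and genes lower had medians of -1.19 and -1.10. These medians come from genes called in control livers, which favours larger changes there. Across all 15416 genes the 2 sets of log2 changes had a Pearson r of 0.70, a description over genes, which are not independent replicates.

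**Figure D5:**
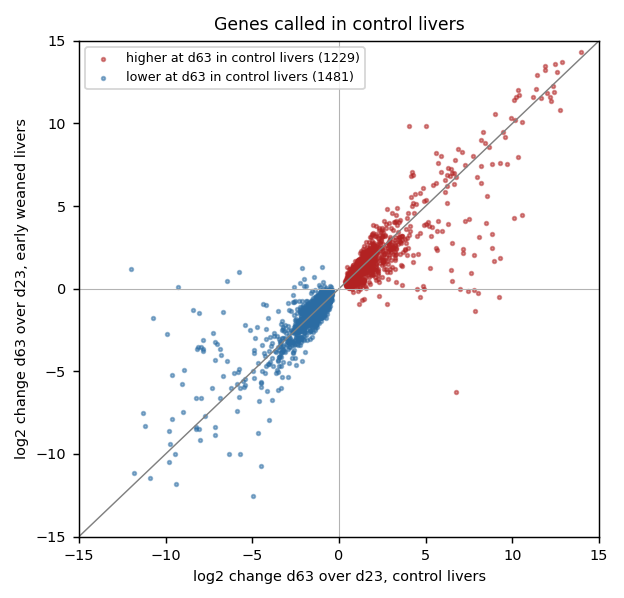
Log2 change from d23 to d63 in early weaned livers (vertical) against that in control livers (horizontal) for the 2710 genes called in control livers, each point 1 gene, with the line of equal change. Most points lie near the line, and 98.6% have the same sign in both.

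The difference between both age changes, tested as an interaction, was called for 1 gene of 15416, which is 0.00649%. At an unadjusted p below 0.05 there were 727 genes, and DESeq2 called 46. Gene lists that depended on control d23 replicate 3 had other counts in early weaned livers. Of the 52 cell cycle genes 3 rose and 1 fell there, with a median of 0.51, and 6 of the 27 beta-oxidation genes rose and 2 fell. For Afp the log2 change was 0.74 in early weaned livers (adjusted p = 0.60). Male-biased genes rose in 16 of 22 and fell in 1, and antigen presentation and interferon genes rose in 23 of 34 and fell in 1. Respiratory chain genes fell in 13 of 34, matrix genes in 18 of 41 and amino acid catabolism genes in 18 of 39.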

How the data were processed

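Liver RNA of Wistar rats was sequenced with a messenger RNA library kit from 1.3 ug of total RNA, per the labels' protocols, which name no strand marking. The authors deposited 1 table with estimated counts and FPKM values per gene, per the file headers. Counts are whole numbers whose low values lie at multiples of 4, so about 4 count units stand for 1 fragment and the floor used was 3 fragments (12 count units). No aligner or counter is given in the sources used here. Mouse builds (GRCm 38, mm 10) are named in the submitters' processing notes, although the table holds rat genes, so its coordinates are not used.

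Estimated counts were fitted with edgeR 4.0.16 (R 4.3.3) over the 12 Wistar libraries, with 1 mean per group, TMM scaling and its filter on low counts (minimum 10), and an adjusted p below 0.05 was called. Standard errors are the log2 change divided by the square root of the test's F. DESeq2 1.42.0 and limma 3.58.1 on log2(FPKM + 1) or log2(FPKM + 0.1) were alternatives, as were other scalings, no filter, a replicate block and leaving out libraries. The method was tested on simulated counts for this comparison, over 15064 genes. There edgeR recovered 87 of 100 genes changed 4-fold and 25 of 100 changed 2-fold, and called 11 unchanged genes. The changes were placed only in genes above the median level. All simulated libraries shared a common mean per gene, with none set between the ages or apart in sex-linked transcripts. The recovery counts hold for that setting and not for the libraries that stood apart here. The named genes were the 12 largest called rises and the 12 largest falls (among genes with no overlap between the 6 control libraries, a mean of at least 1 FPKM in the higher group and a symbol that is not a clone or locus name), a fixed panel of 30 and up to 3 genes per list; others are said to be chosen after their values were seen. Some genes that this rule names are not reported here. The comparison, the members and the lists were chosen with earlier results of these data known. Promoter and miRNA sequences are from RefSeq (GRCr8). Replicate numbers did not pair the libraries, since deviations of same-numbered controls correlated at -0.035 to -0.00083. No 2 libraries held the same values. Antisense and overlapping genes cannot be told apart without strand. Standard errors cover the spread between libraries only. Figures were drawn with matplotlib 3.10.9.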

Additional observations from a re-analysis of the deposited data

Results flagged for a closer look

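AABR07070810 (ENSRNOG00000061579, described in the table as ribosomal protein L12, pseudo 1) was the gene whose age change differed between control and early weaned livers by the test of the difference itself. It had 123, 153 and 114 FPKM at d23 and 74.5, 55 and 67.4 FPKM at d63 in control livers, a fall (log2 change -0.98 ± 0.18 SE, adjusted p = 0.0085). In early weaned livers it had 30.3, 31.6 and 26.9 FPKM at d23 and 80.2, 55.1 and 65.9 FPKM at d63, a rise of 1.30 on the log2 scale (adjusted p = 0.0018). The difference, early weaned minus control, was 2.27 on the log2 scale (edgeR adjusted p = 0.032). The d63 levels of both groups overlapped, and their d23 levels did not. The call was lost when any of control d23 replicates 1 or 2, control d63 replicates 1 or 3 or early weaned d23 replicate 2 was left out. Reads of close copies of a ribosomal protein gene may be shared between them. Rpl12 itself, chosen after its values were seen, was at 234, 232 and 207 FPKM at d23 and 97.7, 188 and 109 FPKM at d63 in control livers and at 338, 327 and 279.9 FPKM at d23 and 95.3, 74 and 81.7 FPKM at d63 in early weaned livers, lower at d63 in both.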

How the results depend on the processing

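The 2710 calls between d23 and d63 in control livers were 4158 with DESeq2 and 281 when the 6 control libraries were fitted alone. Leaving out 1 library gave 646 to 6001 calls, the highest without control d23 replicate 3. With both libraries that stood apart left out there were 5404 calls, and without the 3 libraries that lack Y-linked transcripts 623, both chosen after seeing the data. The other settings gave 2156 to 2906 calls. Of these calls 45.4% were higher at d63, against 56.8% with limma on log2(FPKM + 1) without a filter (1230 higher, 935 lower). The 4161 early weaned calls became 1923 to 2997 when 1 library was left out and 552 without the libraries lacking Y-linked transcripts. The 1 gene of the difference test became 46 with DESeq2, 2 with limma on log2(FPKM + 1), 3 with limma without a filter, 0 with the replicate block, 0 to 4 when 1 library was left out, and 2 in both settings added after seeing the data. The replicate numbers did not pair the libraries (correlations of -0.035 to -0.00083), and the replicate block gave 2156 control calls (1065 higher, 1091 lower).

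Of the named genes, 132 kept their direction and side of the threshold with RLE factors, and 130 did so with DESeq2. The fits that left out 1 library took the call from 1 to 33 of them, and the control libraries alone from 63. Mki67, at -2.42 on the log2 scale and not called, was -2.99 to 2.03 when 1 library was left out, and 2.03 without control d23 replicate 3 (adjusted p = 0.0199) and 2.05 without both libraries (adjusted p = 0.0354). The cause of these differences was not tested. Depth limits genes near 3 fragments per library. For genes with no count in any control library of 1 age, at most a lower bound of the fold is given. Log2 changes of other genes near this level, such as Top2a and Fst, are uncertain in size.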

Other observations

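Control d23 replicate 3 held the highest level of some genes and the d63 level of others. A2m, the alpha-2-macroglobulin of the fetal and acute phase rat liver, had 1.03, 0.91 and 19.4 FPKM at d23 and 0.46, 0.11 and 0.45 FPKM at d63, and its call (log2 change -4.38 ± 1.19 SE, adjusted p = 0.031) was lost when control d23 replicate 3 or d63 replicates 1, 2 or 3 was left out (adjusted p up to 0.093). Afp, Mir675, Mki67 and Tk1 were also highest in this library, with Tk1, the thymidine kinase of replicating cells, at 4.72, 4.55 and 16.1 FPKM at d23 and 3.32, 1.85 and 1.52 FPKM at d63 (a call lost in all 6 fits that left out 1 library, with adjusted p up to 0.12). Chac1, a glutathione-degrading enzyme induced by amino acid stress, had 268, 148 and 0.81 FPKM at d23 and 0.97, 1.02 and 0.91 FPKM at d63, and Jun had 108, 89.5 and 5.04 FPKM at d23 and 7.08, 6.78 and 5.98 FPKM at d63. This library was near the d63 libraries in both genes, so that the ages overlapped. The call of Chac1 was lost when control d23 replicate 1 or d63 replicates 1, 2 or 3 was left out (adjusted p up to 0.065), and that of Jun when control d23 replicates 1 or 2 or d63 replicates 1, 2 or 3 was left out (adjusted p up to 0.11). Chac1, Jun and A2m were chosen after their values were seen. The early weaned d23 libraries had 6041, 8427 and 5873 FPKM of Igfbp1 and 2123, 1842 and 1867 FPKM of Sds, far above the 473 and 305 FPKM of control d23 replicate 3. The labels give no feature that sets control d23 replicate 3 apart.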
